A study of Homo sapiens with 8 samples.

Results

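AMHR2, the type II receptor of anti-Müllerian hormone, and 9 related receptors of the TGF-beta superfamily (ACVR1, ACVR1B, ACVR2A, ACVR2B, BMPR1A, BMPR2, TGFBR1, TGFBR2 and TGFBR3) were examined in A549 cells, an established line of human lung adenocarcinoma. Members were taken by gene symbol: every probe that the platform annotation assigns to a listed gene was used. Of the 10 genes, 9 had a probe, 12 probes in all, among 15550 annotated genes. BMPR1A is not analysed here. The set is built around AMHR2, whose change over time ranked 1 from the lowest of 10964 genes tested. That place depends on how background is handled and on the arrays used. It was 11 with no background correction, and 11 with the arrays of slide 1 alone. Since the set was put together with this contrast in view, the members' own changes are given as a description, with no p-value.

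Total RNA of 8 samples was hybridised to an Illumina BeadChip, on which each probe sits on several beads and is read as a fluorescence intensity. All 8 samples, controls included, were of A549 cells carrying shGLP, a hairpin that targets GLP (gene EHMT1), which methylates histone H3. The groups were 0 h and 24 h of 100 nM dexamethasone, a synthetic glucocorticoid, with 4 arrays each, and cells had been kept in hormone-stripped serum beforehand. Cells without the hairpin, 24 h samples without hormone, and vehicle at 0 h are not analysed here, so the effect of the hormone cannot be told apart from that of time in culture, and whether the hairpin cells were 1 clone or a pool is not given in the sources used here. Nothing states that replicates came from separate cultures, so p-values measure the spread between these samples, which may be technical.

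Receptors of this superfamily are serine/threonine kinases that work in pairs. A dimeric ligand brings type II receptors, whose kinase is always active, together with type I receptors, which are switched on by phosphorylation and then phosphorylate SMAD proteins that act in the nucleus. TGFBR2 and TGFBR1 serve TGF-beta, ACVR2A, ACVR2B and ACVR1B serve activins, and BMPR2 with ACVR1 and BMPR1A serve bone morphogenetic proteins. TGFBR3, betaglycan, is a co-receptor without a kinase that presents TGF-beta 2 and binds inhibin. AMHR2 is known from the gonads and the Müllerian duct, and in lung epithelium TGF-beta slows growth.

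The sequences around the start of transcription are shown for the 3 members whose 0 h and 24 h values did not overlap (AMHR2, TGFBR2 and TGFBR3). Each window, from RefSeq on GRCh38.p14, runs from 250 bases before the annotated start through the first 50 bases of the transcript, on the gene's strand. All 10 genes matched this table, some with several starts. Capitals mark AGAACA, the core repeat bound by the glucocorticoid receptor, GGGCGG, the Sp1 box, TGANTCA, the AP-1 site, and CAAGGTCA, the site of the gonadal factor SF-1, each searched on both strands.
AMHR2, chr12:53423605-53423904, plus strand: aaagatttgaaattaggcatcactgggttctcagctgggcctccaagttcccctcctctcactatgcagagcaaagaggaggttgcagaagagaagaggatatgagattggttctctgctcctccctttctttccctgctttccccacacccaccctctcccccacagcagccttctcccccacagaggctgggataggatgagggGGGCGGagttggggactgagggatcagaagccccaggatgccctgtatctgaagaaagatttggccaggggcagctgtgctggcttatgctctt
TGFBR2, chr3:30606351-30606650, plus strand: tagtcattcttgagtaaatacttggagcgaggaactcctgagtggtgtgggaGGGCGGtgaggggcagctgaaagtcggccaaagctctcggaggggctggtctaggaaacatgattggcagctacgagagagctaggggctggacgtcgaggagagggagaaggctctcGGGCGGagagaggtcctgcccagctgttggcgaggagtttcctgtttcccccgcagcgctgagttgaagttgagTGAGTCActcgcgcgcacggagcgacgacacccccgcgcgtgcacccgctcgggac
TGFBR3, chr1:91886102-91886401, minus strand: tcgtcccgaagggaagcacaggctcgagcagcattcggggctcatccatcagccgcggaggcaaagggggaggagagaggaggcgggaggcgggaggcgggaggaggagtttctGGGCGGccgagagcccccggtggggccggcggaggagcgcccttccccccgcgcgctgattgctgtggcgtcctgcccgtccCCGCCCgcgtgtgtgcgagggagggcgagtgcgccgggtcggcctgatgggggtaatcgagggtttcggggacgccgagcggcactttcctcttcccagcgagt
The AMHR2 window held 1 CpG dinucleotide, against 23 in this TGFBR2 window and 34 in the TGFBR3 window. The median was 14 over 35116 windows, of which 11.0% held as few as AMHR2 or fewer. Few CpG were not particular to AMHR2 among the members. A TGFBR1 window also held 1 and an ACVR1 window 3, while other windows of these genes held up to 47 and 37. The capitals of the AMHR2 window are a single Sp1 box, which 45.0% of windows carry. This TGFBR2 window held 2 Sp1 boxes and 1 AP-1 site (7.71% of windows), and the TGFBR3 window 2 Sp1 boxes. A second TGFBR2 start upstream had 1 core repeat, which 14.8% of windows carry. The full glucocorticoid element, an inverted pair of AGAACA repeats with 3 bases between them, was in none of the members' windows and in 1 of the 35116, and the SF-1 site in 1.28% of windows and in none of the 3 shown. These matches describe letters, not binding.

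Per array, 13897 to 14797 of 22011 probes were detected (detection p under 0.05), and median intensity ran from 137 to 273, lowest in 0 h replicate 1. The arrays lay on 2 slides, replicates 1 and 2 on slide 1 and replicates 3 and 4 on slide 2, with both times on each. EHMT1, the hairpin's target, was near background at 5.39 ± 0.19 at 0 h and 5.75 ± 0.06 at 24 h (log2 intensity, mean ± SD, n = 4 arrays), and EHMT2, its partner, differed by -0.30 ± 0.12 (log2 change ± SE, limma adjusted p = 0.175). Neither value can show depletion without hairpin-free cells. TSC22D3, a glucocorticoid-induced gene, rose by 3.18 ± 0.25 on its brightest probe (adjusted p = 4.21e-05). Of the A549 markers, 9 of 9 with a probe were tested, 4 of them (KRT8, KRT18, CDH1 and CPS1) were called higher, and their summed linear level was 105000 to 117000 at 0 h and 125000 to 132000 at 24 h. Summed levels of other cell types were low, at 355 to 821 and 433 to 637 for fibroblasts, 572 to 725 and 372 to 618 for leukocytes, and 332 to 379 and 296 to 391 for endothelium. COL1A2, COL3A1, PDGFRB, PTPRC, CD3E, LAPTM5, CDH5, VWF and TEK were detected on no array. Of the same lists, COL1A1, THY1, CD68, CD14, PECAM1 and ERG were detected on all 8 arrays, and DCN, LUM and KDR on some. For gonadal support cells, in which AMHR2 is known, the sum was 1590 to 2480 at 0 h and 1540 to 1870 at 24 h. Its brightest gene was SOX9, at log2 10.25 ± 0.53 at 0 h and 9.86 ± 0.25 at 24 h. NR5A1 (SF-1), FSHR and STAR were detected on no array. AMH, FOXL2, CYP11A1, SOX9 and WT1 of that list were detected on all 8 arrays. Of its 7 tested genes INHA was called higher (1.18 ± 0.21, adjusted p = 0.00615) and WT1 lower (-0.57 ± 0.14, adjusted p = 0.0241). INHA passed the filter on dim probes only through the 24 h arrays, where it is higher, so nothing is read from its call. The part of these markers in the receptors' changes was not tested.

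AMHR2 was well detected before hormone and near the detection limit after it. On the log2 scale the 0 h arrays, in the order of replicates 1 to 4, read 7.47, 7.18, 8.47 and 9.18, and the 24 h arrays 5.57, 4.82, 5.53 and 5.14. Every 0 h array lay above every 24 h array, and the 0 h values were spread wider than those at 24 h. The means were 8.08 ± 0.92 and 5.27 ± 0.36 (SD, n = 4 arrays each), a log2 change of -2.81 ± 0.39 (SE). No fold is given, since 3 of the 4 arrays at 24 h did not detect the probe. Within the numbered pairs it changed by -1.90, -2.36, -2.94 and -4.04. Fewer cells with AMHR2 transcript and less transcript per cell cannot be told apart in bulk RNA.

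Before normalization, the AMHR2 intensities were 166, 211, 640 and 726 at 0 h, from 28 to 45 beads per array, and 111, 98.4, 164 and 122 at 24 h, from 32 to 41 beads. Relative to the lowest detected intensity of the same array, they were 1.61, 1.78, 4.05 and 5.28 times as high at 0 h and 0.982, 0.811, 1.02 and 0.891 times at 24 h. The probe was called detected in all 4 samples before hormone but in 1 of 4 after it, replicate 3, with a detection p of 0.0324.

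**Figure D1:**
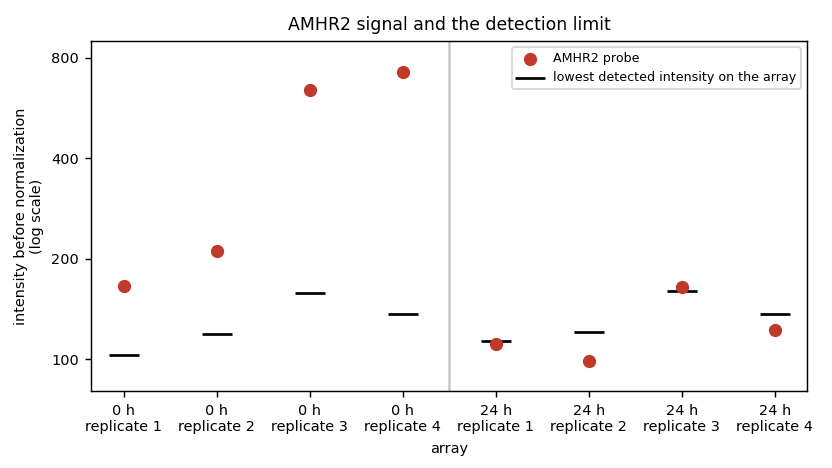
Intensity of the AMHR2 probe on each of the 8 arrays (points, log scale) beside the lowest intensity called detected on that array (bars). At 0 h the probe lay 1.61 to 5.28 times above the limit, and at 24 h 0.811 to 1.02 times.

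The 0 h level of AMHR2 differed by slide. It averaged 7.32 on slide 1 and 8.83 on slide 2, while the 24 h averages were 5.20 and 5.33. The change was therefore -2.13 on slide 1 and -3.49 on slide 2, and that difference was not tested. Arrays of slide 2 were also the brightest, with median intensities of 205 to 273 against 137 to 201. The size of the change rests on how background is handled: with no background correction the change was -1.59, with a larger background offset of 50 it was -2.08, and in the authors' deposited table of normalized values it was -2.43.

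TGFBR2, the ligand-binding receptor of TGF-beta, was bright at both times and higher at 24 h. It read log2 12.44, 12.57, 12.74 and 12.60 at 0 h and 13.31, 13.22, 13.07 and 13.08 at 24 h. The groups did not overlap, and within each time the arrays lay close together. The change was 0.58 ± 0.12 (SE), from 12.59 ± 0.12 to 13.17 ± 0.11 (SD, n = 4 arrays each). It was 0.75 on slide 1 and 0.41 on slide 2, and leaving out 24 h replicate 1 lowered it to 0.53 and ended its call.

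TGFBR3, the co-receptor betaglycan, was also higher on every 24 h array than on any 0 h array, by a smaller step. Its log2 values were 10.01, 10.11, 10.24 and 10.46 at 0 h and 10.67, 10.74, 10.62 and 10.54 at 24 h. The highest 0 h array and the lowest 24 h array, both replicate 4, differ by 0.08. The means were 10.21 ± 0.19 and 10.65 ± 0.08 (SD, n = 4 arrays each), a change of 0.44 ± 0.13 (SE), at 0.65 on slide 1 and 0.23 on slide 2. It was not called, and its change ran from 0.23 to 0.65 over 19 alternative settings.

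TGFBR1, the type I partner of TGFBR2, was dim. It read log2 5.39, 6.34, 6.49 and 5.81 at 0 h and 6.49, 5.91, 7.06 and 6.53 at 24 h, and was detected on 3 and 4 of 4 arrays. The groups overlapped, since replicate 2 was lower at 24 h while the other pairs were higher. Its change was 0.49 ± 0.28 (SE), and it was not called.

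The BMP and activin receptors lay close to 0 change. BMPR2, the BMP type II receptor, ran from 10.25 to 11.17 at 0 h and from 10.56 to 11.13 at 24 h on the log2 scale, with a change of 0.06 ± 0.21 (SE). ACVR2A, an activin type II receptor, ran from 8.18 to 8.79 and from 8.34 to 8.87, with a change of 0.03 ± 0.18. ACVR1, the type I receptor ALK2, ran from 11.32 to 12.16 and from 11.46 to 11.74, with a change of -0.15 ± 0.18. Values of the times overlapped for each of these 3 genes, and each was detected on all 8 arrays. ACVR2B, the other activin type II receptor, was detected in replicate 3 alone at each time and was not tested. It ran from 5.14 to 6.27 at 0 h and from 5.06 to 5.83 at 24 h.

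ACVR1B, the activin type I receptor ALK4, was covered by 4 probes for 3 annotated transcripts. The brightest ran from 10.79 to 11.14 at 0 h and from 10.63 to 11.12 at 24 h, with a change of -0.06 ± 0.15 (SE). The dimmer probes gave -0.33 ± 0.17 and 0.01 ± 0.20, and the dimmest, detected on 1 of 8 arrays and not tested, gave -0.18. All 4 overlapped between the times.

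**Figure D2:**
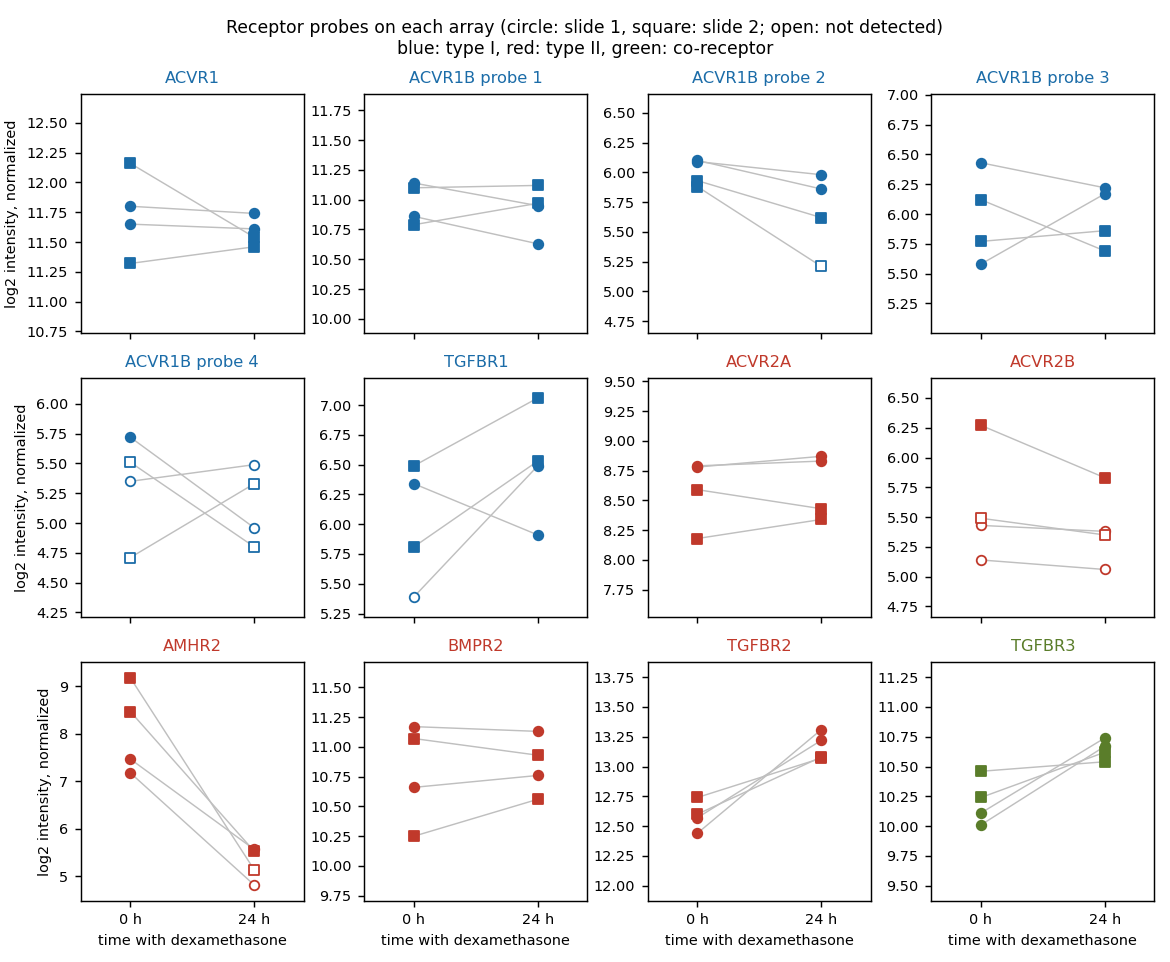
Normalized log2 intensity of the 12 receptor probes on each array at 0 h and 24 h, with lines joining arrays of the same replicate number, circles for slide 1, squares for slide 2 and open symbols where the probe was not detected. AMHR2 falls on all 4 lines, TGFBR2 and TGFBR3 lie higher on all 4, and the other probes overlap between the times.

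Of the 9 genes with a probe, 8 passed the filter on dim probes. Of these, 1 was called higher (TGFBR2) and 1 lower (AMHR2) at an adjusted p under 0.05, where 10.1% of all 10964 genes were called (4.72% higher and 5.34% lower). The values of the times did not overlap for 3 of the 8, against 17.4% of all genes. Nothing is read from these counts, as the set was chosen on this contrast. AMHR2 also passed the filter only through the 0 h arrays, where it is higher (detected on 4 of 4, against 1 of 4 at 24 h). AMHR2 and TGFBR2 are both type II receptors, and their changes had opposite directions. The 4 tested type II receptors ran from -2.81 to 0.58 with a median change of 0.05, and the 3 tested type I receptors from -0.15 to 0.49 with a median of -0.06, beside a median of -0.01 over all genes. Apart from AMHR2, every tested member's change lay between the 5th and 95th percentiles of all genes, -0.67 and 0.65.

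**Figure D3:**
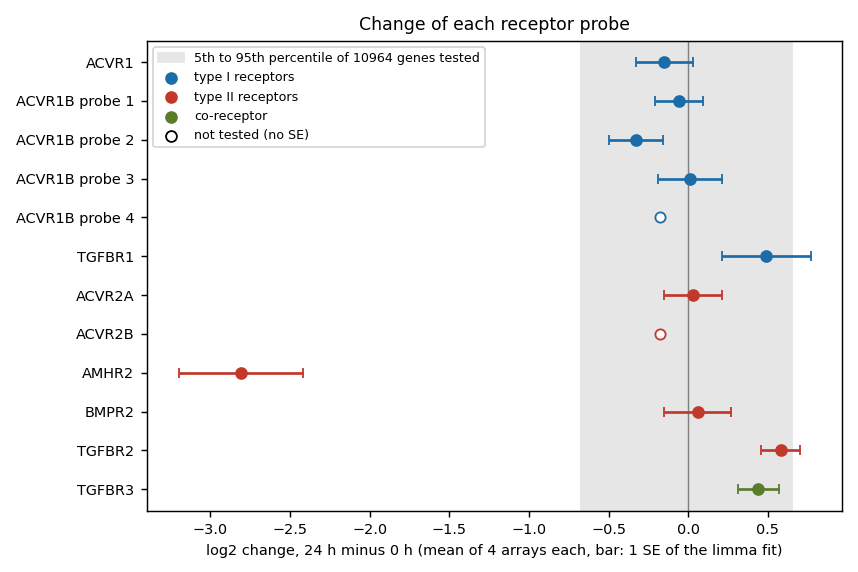
Log2 change from 0 h to 24 h of each receptor probe, with 1 SE of the limma fit (open symbols: not tested, no SE) and the range from the 5th to the 95th percentile of all 10964 genes in grey. AMHR2 at -2.81 stands outside the grey range, and the other probes, from -0.33 to 0.58, lie within it.

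Genes next to AMHR2 in the reference order were set beside it. SP1, a transcription factor and the nearest gene on one side, changed by -0.20 ± 0.15 (SE), and PRR13, the nearest on the other, by -0.15 ± 0.12, and neither passed (limma adjusted p = 0.485 and 0.54). PCBP2, an RNA-binding protein beyond PRR13, differed by 0.05 ± 0.13 on its brightest probe (adjusted p = 0.889). SP7, beyond SP1, was detected on no array.

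The 5 tested genes whose values followed AMHR2 most closely over the 8 arrays were DUT, which hydrolyses dUTP, NRM, a nuclear envelope protein, CBX5, the heterochromatin protein HP1 alpha, GAL, the neuropeptide galanin, and MRGBP, a subunit of a histone acetyltransferase complex. Pearson's r ran from 0.981 to 0.986 across arrays that share slides and times, and is a description only. These genes were picked for that likeness, which also fixes in part what follows. After each time's mean was removed, r was 0.911, 0.958, 0.935, 0.898 and 0.872 in that order. Their falls were smaller than that of AMHR2, from -0.49 ± 0.12 (MRGBP) to -1.11 ± 0.18 (GAL).

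Other genes of the pathway were taken from 5 lists by role. Of 105 genes listed, 94 had a probe and 66 were tested. Limma called 5 higher and 6 lower at an adjusted p under 0.05, beside 10.1% of all genes, and the median change was -0.01. The replicate numbers pair the arrays, and with the replicate number as a block 9 were called higher and 11 lower, beside 7.99% and 8.98% of all genes.

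Among 8 tested receptors and co-receptors outside the members, with a median change of -0.00, CD109, a membrane protein that binds TGF-beta, rose. It went from 8.23 ± 0.18 to 9.02 ± 0.20 (log2 mean ± SD, n = 4 arrays each), a change of 0.79 ± 0.15 (SE), at 0.85 on slide 1 and 0.73 on slide 2 (limma adjusted p = 0.00671). BAMBI, a pseudoreceptor that lacks a kinase, differed by -0.31 ± 0.30 and BMPR1B, a BMP type I receptor, by -0.09 ± 0.26, and neither passed (adjusted p = 0.615 and 0.893). ACVRL1 and ACVR1C, the remaining type I receptors, were detected on no array.

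Of 12 tested ligands, 1 was higher and 1 lower, and 1 and 3 with the replicate block, with a median change of -0.11. INHA, the inhibin alpha subunit, rose by 1.18 ± 0.21 (SE), at 0.81 on slide 1 and 1.55 on slide 2 (adjusted p = 0.00615). It went from 5.24 ± 0.34, detected on 2 of 4 arrays, to 6.42 ± 0.34, detected on 4 of 4. INHA passed the filter on dim probes only through the 24 h arrays, where it is higher, so nothing is read from its call. GDF15, a divergent member that acts through the receptor GFRAL, changed by -1.73 ± 0.19, from 12.41 ± 0.19 to 10.68 ± 0.35, with -1.73 and -1.74 on the slides (adjusted p = 0.000338). AMH, the ligand of AMHR2, was detected on all 8 arrays at 7.22 ± 0.58 and 6.88 ± 0.12, and its difference of -0.34 ± 0.25 did not pass (adjusted p = 0.498). TGFB2 differed by -0.41 ± 0.15, which did not pass (adjusted p = 0.134) but did with the replicate block (0.0438) and with the slide as a block (0.041). BMP5, whose groups did not overlap, differed by -0.36 ± 0.13 (adjusted p = 0.117, and 0.0422 with the replicate block). TGFB1 was detected on 1 of 8 arrays and INHBA, the activin A subunit, on none. LEFTY1, another ligand, was not tested. It read 4.76 ± 0.10 at 0 h, detected on 0 of 4 arrays, and 6.25 ± 0.74 at 24 h, detected on 3 of 4.

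Of 11 tested secreted inhibitors and ligand-binding proteins, 1 was higher and 1 lower, and 3 and 2 with the replicate block, with a median change of 0.08. FST, follistatin, which traps activins, changed by -1.62 ± 0.18 (SE), from 10.48 ± 0.33 to 8.86 ± 0.21, with -1.58 and -1.66 on the slides (adjusted p = 0.000442). Its 0 h arrays read 10.50, 10.28, 10.93 and 10.21 and its 24 h arrays 8.88, 8.74, 9.15 and 8.66, so the groups lay far apart. NBL1, a BMP antagonist, rose by 0.86 ± 0.15, at 0.63 on slide 1 and 1.09 on slide 2 (adjusted p = 0.00435). A second probe of each was called the same way, at -1.58 for FST and 0.83 for NBL1. With the replicate block, FSTL3 at 0.63, THBS1 at 0.63 and GREM1 at -1.16 also passed (adjusted p = 0.0191, 0.0266 and 0.016).

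Of 17 tested SMAD proteins and their regulators, 2 were lower, and with the replicate block 1 was higher and 2 lower, with a median change of 0.02. SMAD3, which carries the signals of TGF-beta and activin receptors, changed by -0.74 ± 0.13 (SE), from 12.39 ± 0.19 to 11.65 ± 0.09, with -0.57 on slide 1 and -0.91 on slide 2 (adjusted p = 0.00634). SMAD6, an inhibitor of BMP signalling, changed by -0.87 ± 0.16, from 12.28 ± 0.22 to 11.41 ± 0.21, with -1.06 and -0.69 on the slides (adjusted p = 0.00582). The groups did not overlap for either gene. SMAD4, the shared partner of the signalling SMADs, had a difference of -0.04 ± 0.18 that did not pass (adjusted p = 0.928). NEDD4L, a ubiquitin ligase, differed by 0.47 and passed with the replicate block (adjusted p = 0.0274). SMAD2 was detected on 1 of 8 arrays and was not tested.

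Of 18 tested target genes, 2 were higher and 2 lower, and 3 and 4 with the replicate block, with a median change of -0.19. ID1, a BMP target that blocks helix-loop-helix factors, rose by 1.13 ± 0.15 (SE), from 12.13 ± 0.23 to 13.25 ± 0.13, at 1.11 and 1.14 on the slides (adjusted p = 0.000987), and its dimmer probe by 1.46. Its relatives did not pass, with ID2 at -0.67 ± 0.19 (adjusted p = 0.0527, and 0.014 with the replicate block) and ID3 at 0.21 ± 0.18 (adjusted p = 0.578). FN1, fibronectin, at 0.38 and TPM1, a tropomyosin, at -0.49 also passed with the replicate block (adjusted p = 0.0425 and 0.0148). SNAI2, a transcription factor of mesenchymal cells, rose by 1.70 ± 0.34 from a level detected on 3 of 4 arrays (adjusted p = 0.0103), at 1.96 and 1.44 on the slides. IGFBP3, which binds insulin-like growth factors, was called lower at -1.07 ± 0.25, with -0.98 and -1.15 on the slides (adjusted p = 0.0201), and lost the call without 24 h replicate 1 or 2 or 0 h replicate 3 or 4 (adjusted p = 0.0529 to 0.0583), while its other probe gave -1.16 (adjusted p = 0.00555). COL1A1, the collagen I alpha chain, was called lower at -1.22 ± 0.32, with -1.55 and -0.90 on the slides (adjusted p = 0.0385), its groups overlapped, and it lost the call on leaving out any array other than 0 h replicate 4 (adjusted p = 0.0561 to 0.0945) or with no filter on dim probes (0.0646). COL1A1 is also on the fibroblast list, where DCN, decorin, was called the other way (2.00 ± 0.27, adjusted p = 0.00119) and went from 0 to 4 arrays detected. DCN passed the filter on dim probes only through the 24 h arrays, where it is higher, so nothing is read from its call. The part of other cell types in these changes was not tested.

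**Figure D4:**
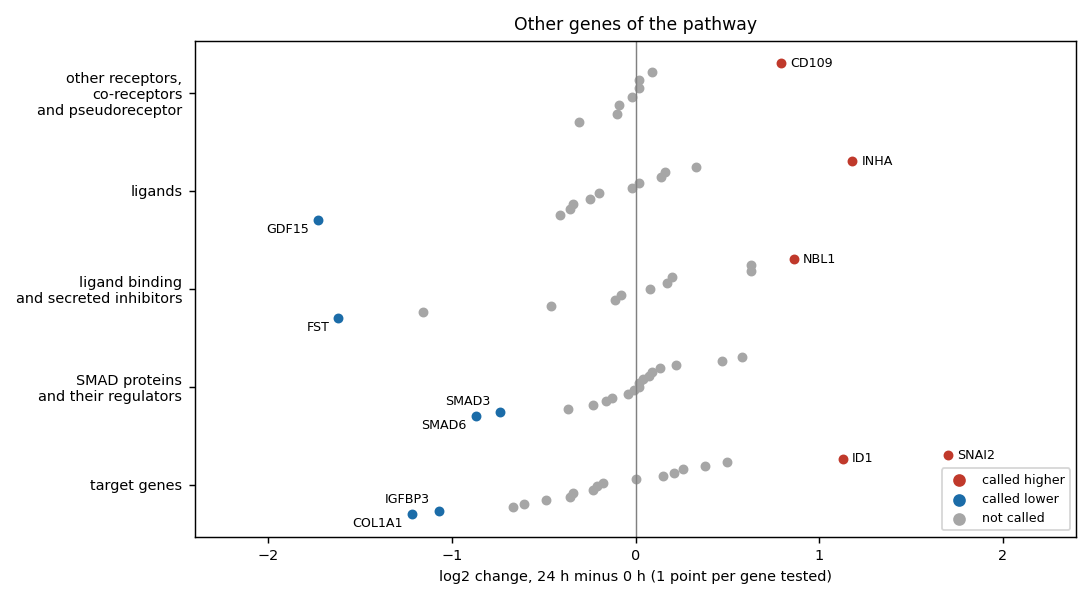
Log2 change from 0 h to 24 h of the 66 tested pathway genes outside the members, 1 point per gene, by role, with genes called higher in red and lower in blue. Called genes stand at the ends of each row, from GDF15 at -1.73 to SNAI2 at 1.70, and uncalled genes mostly lie around 0.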

How the data were processed

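Expression of 8 samples of shGLP A549 cells was measured on Illumina BeadChips. Per the file headers, the deposited table of unprocessed values holds, for 25204 probes, a mean intensity over beads on a linear scale, the number of beads and a detection p-value. Its 8 columns headed standard error were not used. The authors' normalized table holds log2 values of 22011 probes. The submitters' processing notes name limma, without saying how it was applied. Intensities were background-corrected with nec of limma 3.58.1 (R 4.3.3) by way of the detection p-values (offset 16). The 22011 probes were then quantile normalized on the linear scale, and log2 was taken afterwards. Probes with a detection p-value under 0.05 on at least 4 arrays were tested with lmFit and eBayes, two-sided, with Benjamini-Hochberg adjustment over all tested probes. A gene was counted by its brightest tested probe. Symbols were updated by Entrez identifier through RefSeq (GRCh38.p14) for 19741 of 19759 probes. The fit was tested on simulated data. Same-numbered 0 h and 24 h arrays deviated together from their time means (r = 0.463, 0.454, 0.367 and 0.454 for replicates 1 to 4, over probes). The numbers were therefore taken as pairs in the replicate block, which is an alternative setting. The main fit had no block, so its SE, adjusted p-values and calls leave the pairing out. The members and lists were chosen with earlier results of these data known. Named pathway genes are those called, up to 8 per list with the smallest p, and up to 4 uncalled relatives of a member per list. WT1, DCN, ID2, ID3, LEFTY1 and the genes that passed only with a block were named after their values were seen. Other background settings, scalings, filters, blocks and left-out arrays were tried. The number of arrays limits the precision.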

Additional observations from a re-analysis of the deposited data

Results flagged for a closer look

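Of 46 groups of 4 values examined (each receptor probe and each called pathway gene at each time), 2 held an array far from the others, where chance alone gives about 5% of groups. CD109 read log2 9.31 in 24 h replicate 3, against 8.90 to 8.96 in the other 24 h arrays. COL1A1 read 6.74 in 24 h replicate 3, against 6.26 to 6.30 in the others. Both are the same array, and without it CD109 kept its call. COL1A1 lost its call (adjusted p = 0.0561), although its change was then larger, at -1.34 against -1.22.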

How the results depend on the processing

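AMHR2 was chosen on this contrast, so its calls show nothing about stability and only its size is given. Its change of -2.81 became -1.59 with no background correction and -2.08 with a background offset of 50, and ran from -3.11 to -2.44 on leaving out 1 array at a time, and its rank from the lowest change, 1 in the report, ran from 1 to 11 over the alternatives. The count of receptor genes called, 2 in the report, was 1 on slide 1 alone and 1 on slide 2 alone, and 1 to 3 on leaving out 1 array. With the replicate block the same receptor count was 2. Nothing is read from these receptor counts, since the set was chosen on this contrast. The 11 pathway genes called became 17 with the slide as a block, 20 with the replicate block, 2 on slide 2 alone, and 9 to 13 on leaving out 1 array. Over all genes, 1103 calls became 1503 with the slide as a block, 1861 with the replicate block, 494 on slide 1 alone, 402 on slide 2 alone, and 760 to 1027 on leaving out 1 array. The single-slide settings hold 2 arrays at each time. The cause of these shifts was not tested. Low signal limits AMHR2 at 24 h, TGFBR1, ACVR2B and the dimmer ACVR1B probes.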
